A study of Mus musculus with 58 samples.

Results

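The B cell receptor and B lineage genes described here were Cd79a, Cd79b, Cd22, Blk, Bank1, Cr2, Ms4a1, Btla and Pax5, which is 9 of the 20018 genes that the arrays name. The genes were chosen by name, with the lung results of these arrays already known, and they were read through 12 of 55681 probes. Bank1, Cr2 and Pax5 had 2 probes each, and a gene is given by its brighter probe unless the other is named. Because the lung dose differences chose the genes, they are given below as a description, and a count of limma calls among the 9 in lung is printed there without weight. Liver, forestomach and the comparison of tissues were tested. The B cell genes outside the 9 were fitted in the same lung contrasts and listed with those results known, so their calls are no independent support for the 9.

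The animals were male Muta™Mouse, about 10 weeks old, a transgenic strain in which every mouse, the controls included, carries a bacterial lacZ reporter for scoring mutations. BaA (benz(a)anthracene), one of the polycyclic aromatic hydrocarbons, was given by oral gavage in olive oil for 28 days, and tissues were taken 72 h after the last dose. Group D0 received olive oil alone. The daily BaA dose was 20 mg/kg-bw in D1, 40 mg/kg-bw in D2 and 80 mg/kg-bw in D3. The 58 arrays came from 20 mice, with 5 mice for every tissue and dose except the livers of D3 and the forestomachs of D0, where there were 4. Each array is a separate mouse or tissue, and the RNA came from slices of whole tissue, so a change in the number of B cells and a change in the transcript per B cell cannot be told apart in these values.

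B lymphocytes recognize antigen through a membrane antibody that cannot signal by itself and relies on the Cd79a and Cd79b proteins, whose tails are phosphorylated by Src family kinases when antigen binds. Co-receptors raise or lower that signal, and the transcription factor Pax5 keeps the cell committed to the B lineage. Lung holds B cells in its capillaries and in small lymphoid aggregates around airways, whereas healthy liver and forestomach hold few by comparison.

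All values are log2 ratios of the tissue RNA (Cy5) over a reference RNA pooled from mouse cell lines (Cy3) that was the same on every array, so levels are compared for a given probe and not between genes. Between 44.4% and 55.2% of spots were well above background in Cy5 on the lung arrays, 34.1% to 45.7% in liver and 38.4% to 69.2% in forestomach. In lung, Cd79a, Cd79b, Cd22, Bank1, Cr2, Ms4a1 and Btla were well above background on 20 of 20 arrays, Pax5 on 12 and Blk on 5, and the dimmer Pax5 probe on none (0). Of the lung epithelium list 7 of 7 genes passed the filter on the lung arrays, and the B cell markers Cd79a, Cd79b, Ms4a1 and Cd22 were detected in every lung. Of the 20 lungs, 4 stood apart by genes of other tissues. The lung of D2 mouse 14 had a log2 ratio of 5.78 for Adipoq, a fat cell hormone, against 1.14 to 1.87 in the other D2 lungs. The lung of D3 mouse 17 had 4.40 for Rag1, the recombinase of lymphocyte precursors, against 0.02 to 0.11 in the other D3 lungs. The lungs of D0 mouse 5 and D3 mouse 16 had 5.31 and 1.91 for Krt13, a keratin of stratified epithelium, against values between -2.17 and -1.54 in the remaining lungs. Results that rest on these lungs are given with and without them.

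Promoters are shown for a signalling subunit (Cd79a), for the gene with the largest lung difference among the 9 at the highest dose (Btla), for an adaptor (Bank1), and for a co-receptor whose ratio stayed near the control level (Cd22). They are the 250 bases before the annotated start in RefSeq (GRCm38.p6), read 5′ to 3′ on the gene's strand, and 6 of the 9 genes had an entry in the promoter table used here. Capitals mark exact matches on either strand to letters bound by B cell factors, namely the EBF1 core CCCNNGGG, the octamer ATTTGCAT, the Ets motif AGGAAGT and the E box CAGGTG, with no overlap between matches in these 4.
Cd79a, chr7:24897247-24897496, plus strand: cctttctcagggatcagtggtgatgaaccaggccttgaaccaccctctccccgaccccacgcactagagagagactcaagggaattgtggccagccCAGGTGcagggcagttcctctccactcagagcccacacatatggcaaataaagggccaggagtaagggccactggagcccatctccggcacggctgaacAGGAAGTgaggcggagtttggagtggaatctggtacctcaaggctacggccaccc
Btla, chr16:45224087-45224336, plus strand: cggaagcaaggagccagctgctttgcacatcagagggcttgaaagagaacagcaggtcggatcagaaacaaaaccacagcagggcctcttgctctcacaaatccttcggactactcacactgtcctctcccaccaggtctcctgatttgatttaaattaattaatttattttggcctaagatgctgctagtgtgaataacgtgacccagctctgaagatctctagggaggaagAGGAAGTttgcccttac
Bank1, chr3:136326067-136326316, minus strand: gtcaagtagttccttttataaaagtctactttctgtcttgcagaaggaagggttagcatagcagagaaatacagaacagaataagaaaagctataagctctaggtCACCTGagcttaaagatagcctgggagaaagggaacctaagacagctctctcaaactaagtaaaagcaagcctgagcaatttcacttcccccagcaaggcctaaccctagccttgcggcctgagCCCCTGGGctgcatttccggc
Cd22, chr7:30879029-30879278, minus strand: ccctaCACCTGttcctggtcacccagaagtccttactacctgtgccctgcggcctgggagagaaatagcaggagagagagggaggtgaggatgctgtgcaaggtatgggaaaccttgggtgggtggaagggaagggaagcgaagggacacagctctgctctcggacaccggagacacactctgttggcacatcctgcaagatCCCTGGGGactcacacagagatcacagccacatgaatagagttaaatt

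The E box was found in 4 of the 6 promoters (Cd79a, Bank1, Cd22 and Cr2), the EBF1 core in 2 (Bank1 and Cd22), the Ets motif in 2 (Cd79a and Btla), and the octamer in none (0). Among all 32851 promoters of the same length, 17.2% held the E box, 11.8% the EBF1 core, 7.69% the Ets motif and 1.6% the octamer. A match describes letters and is not a binding site, and the EBF1 core and E box were present both in Bank1 and in Cd22, whose lung values differed as described below.

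In lung, most of the 9 genes were higher in BaA-exposed mice than in vehicle controls, and for 8 of 9 the mean was highest at D2 or D3. The differences from D0 were largest for Btla, Cd79b, Bank1 and Ms4a1, whereas Cd22 stayed near the control level. At the study's thresholds (a fold of at least 1.5 with an adjusted p no higher than 0.05, by limma) 0 of the 9 genes passed at D1, 5 at D2 (Cd79a, Cd79b, Ms4a1, Btla and Bank1) and 3 at D3 (Cd79b, Btla and Bank1). Of all 14505 genes in that fit, 0% passed at D1, 0.71% at D2 and 2.26% at D3, and since these contrasts chose the genes nothing is read from the counts. The median difference of the 9 genes was 0.24, 0.63 and 0.27 from D1 to D3, beside 0.01, 0.03 and 0.04 over all genes. Without the 4 lungs named above the median differences were 0.29, 0.57 and 0.30.

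The pair of proteins that carries the signal of the receptor is encoded by Cd79a and Cd79b. Cd79b had log2 ratios of 0.54, -0.15, 0.39, 0.13 and 0.22 in the D0 lungs, 1.19, 0.38, 0.68, 0.36 and 0.76 at D1, 1.26, 0.94, 1.37, 1.78 and 1.30 at D2, and 0.99, 1.06, 1.11, 0.85 and 1.09 at D3. Every D2 and D3 lung lay above every D0 lung, and D1 overlapped with D0. The mean was 0.23 ± 0.26 at D0 (SD, n = 5) and differed from it by 0.45, 1.10 and 0.80 at D1, D2 and D3, or 1.36-, 2.15- and 1.74-fold. The D3 lungs were the most alike, with an SD of 0.10. Cd79a had 1.36, 0.80, 0.93, 0.66 and 1.20 at D0, 1.68, 1.01, 0.92, 1.13 and 1.41 at D1, 1.46, 1.46, 1.62, 2.09 and 1.51 at D2, and 1.14, 1.43, 1.07, 1.26 and 1.40 at D3. The D2 lungs lay above all D0 lungs, by a narrow margin, and the other groups overlapped with D0. Its differences were 0.24, 0.63 and 0.27, or 1.18-, 1.55- and 1.20-fold.

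Blk, the Src family kinase typical of B cells, was close to the detection limit in lung. No D0 or D1 lung (0 of 5 each) had a Blk spot well above background, while 3 of 5 D2 lungs and 2 of 5 D3 lungs did. Its ratios were 0.41, 0.24, 0.12, 0.28 and 0.40 at D0, 0.42, 0.56, 0.26, 0.79 and 0.63 at D2, and 0.47, 0.58, 0.34, 0.36 and 0.49 at D3, so the groups overlapped. The Blk differences were 0.24 at D2 and 0.16 at D3. No fold is given, because D0 held no array above background and the dosed groups held dim arrays too. Under median centering and relative to the median of all probes the differences were -0.33 and -0.13. Bank1 encodes a scaffold that brings Src family kinases to calcium channels after receptor engagement. Its ratios were 2.87, 1.94, 2.56, 2.31 and 2.29 at D0, 3.38, 2.46, 2.77, 2.36 and 2.89 at D1, 3.41, 2.87, 3.26, 3.44 and 3.27 at D2, and 3.08, 3.21, 3.25, 2.84 and 3.00 at D3. The lowest D2 lung equalled the highest D0 lung, and 1 D3 lung lay just below it. The differences were 0.38, 0.86 and 0.68 (1.30-, 1.81- and 1.60-fold), and the second Bank1 probe gave 0.26, 0.77 and 0.66, with r of 0.90 between the probes over the 20 lungs. With background-subtracted signals in place of median signals the Bank1 differences were 0.20 at D2 and 0.15 at D3.

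Among the co-receptors, Cd22, an inhibitory lectin that binds sialic acid and recruits phosphatases, had 0.68, 0.93, 0.69, 0.68 and 0.33 at D0, 0.62, 0.53, 0.70, 0.70 and 0.44 at D2, and 0.57, 0.48, -0.01, 0.72 and 0.60 at D3. The groups overlapped throughout, and the differences were -0.01, -0.07 and -0.19 from D1 to D3. Because the Cd22 probe read similar levels in all tissues of vehicle mice, its flat lung values may not be those of B cells, which was not tested. Cr2 encodes the complement receptor CD21, which lowers the threshold of the receptor, and its 2 probes gave different pictures. The brighter probe (A_55_P1971729) averaged 4.13 ± 0.13 at D0, 4.37 ± 0.23 at D2 and 4.18 ± 0.20 at D3 (SD, n = 5), with overlapping groups and differences of 0.19, 0.24 and 0.05. The dimmer probe (A_55_P1971724) had 1.35, 0.96, 1.05, 0.78 and 0.68 at D0, 2.00, 1.58, 1.75, 2.00 and 1.67 at D2, and 1.73, 2.07, 1.37, 1.75 and 1.42 at D3. There every D2 and D3 lung lay above every D0 lung, and the differences were 0.42, 0.83 and 0.70. Over the 20 lungs the 2 probes correlated with r of 0.30, so no single lung value is given for Cr2.

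Ms4a1 encodes CD20, the surface protein used to mark mature B cells. Its ratios were 0.28, -0.54, 0.08, -0.42 and -0.09 at D0, 0.85, -0.11, 0.10, 0.32 and 0.32 at D1, 0.63, 0.36, 0.81, 1.30 and 0.53 at D2, and 0.15, 0.27, 0.27, 0.09 and 0.39 at D3. All D2 lungs lay above all D0 lungs, while at D3 all but 1 lung (0.39) lay within the D0 range, with an SD of 0.12 against 0.34 at D0. The differences were 0.43, 0.86 and 0.37, or 1.35-, 1.82- and 1.30-fold. Btla encodes an inhibitory receptor on B and T cells that binds the tumor necrosis factor receptor relative Tnfrsf14. Its ratios were 2.27, 1.49, 1.61, 1.51 and 1.29 at D0, 2.79, 1.42, 2.30, 1.97 and 2.78 at D1, 3.17, 2.53, 2.83, 2.85 and 3.27 at D2, and 3.16, 3.15, 2.53, 3.11 and 2.96 at D3. Btla showed the largest differences of the 9 genes, 0.62, 1.29 and 1.35 (1.53-, 2.45- and 2.54-fold), with every D2 and D3 lung above every D0 lung. It was the only one of the 9 whose mean was highest at D3, by little (2.98 against 2.93 at D2). The tissue channel alone differed from D0 by 1.23 at D2 and 1.15 at D3, and the reference channel by -0.2 at D3. Without the 4 lungs named above the D2 difference was also the larger. Pax5 had 0.33, 0.33, 0.37, 0.26 and 0.25 at D0, 0.61, 0.63, 0.75, 0.72 and 0.26 at D2, and 0.35, 0.66, 0.31, 0.55 and 0.44 at D3. One D2 lung, mouse 15, stayed within the D0 range, and the differences were 0.10, 0.29 and 0.16, against -0.15, -0.23 and -0.09 under median centering relative to the median of all probes. With background-subtracted signals they were 0.90 at D2 and 0.57 at D3, and those of Blk 1.24 and 0.95, both genes being near background.

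**Figure D1:**
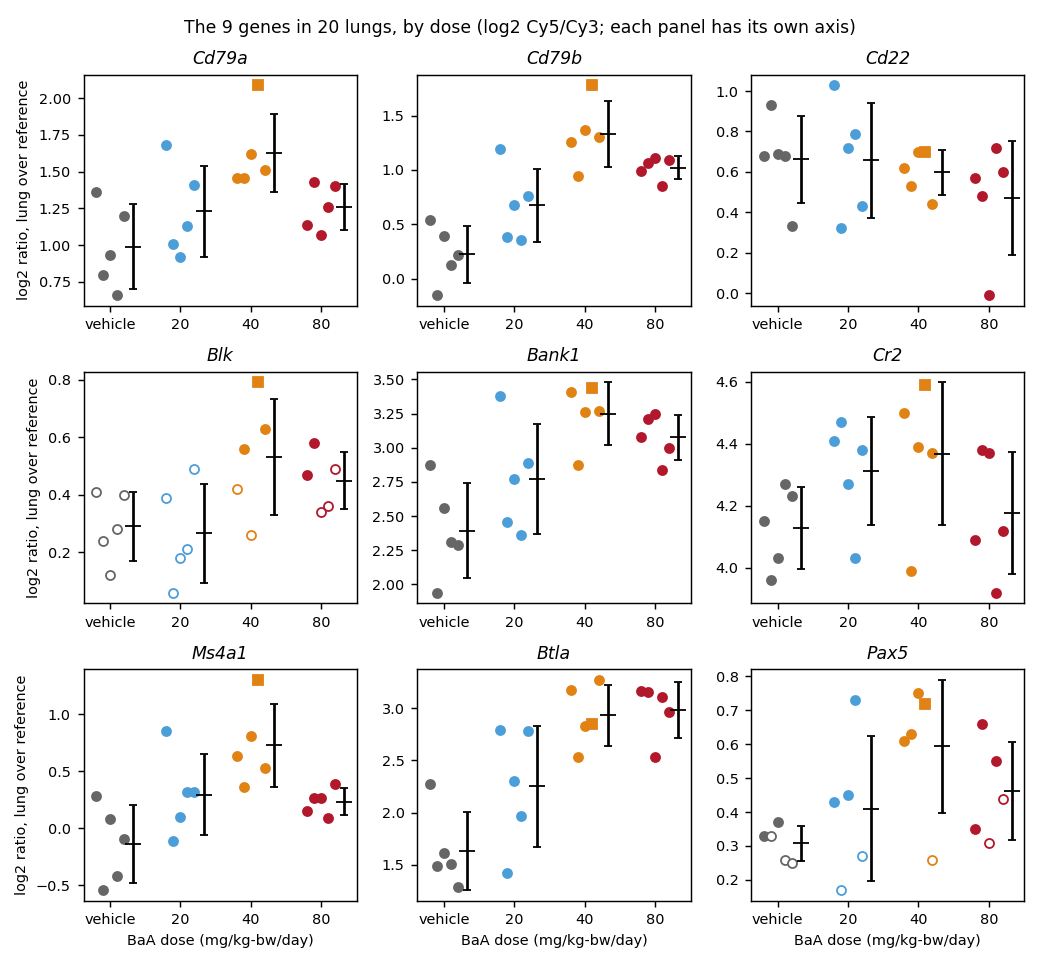
Log2 ratio of lung RNA over reference RNA for each of the 9 genes, 1 panel per gene with its own axis, against the BaA dose. Points are mice (n = 5 per dose), filled where the probe was well above background, the square is D2 mouse 14, and the bar is the mean ± SD. The D2 and D3 lungs lie above all D0 lungs for Cd79b and Btla, and Cd22 shows no separation.

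The 4 genes whose D2 lungs all lay above the D0 lungs were Cd79a, Cd79b, Ms4a1 and Btla, and at D3 these were 2, Cd79b and Btla. At D1 there were none (0). Over all genes the same was true of 0.69% at D1, 4.75% at D2 and 6.75% at D3. The order of the mice within a group was shared by several genes. Mouse 1 had the highest D0 value for Cd79a, Cd79b, Ms4a1, Btla and Bank1, mouse 6 the highest D1 value for the same 5 genes and Cd22, and mouse 14 the highest D2 value for Cd79a, Cd79b, Ms4a1, Bank1, Blk and Cr2. As a description over the 20 lungs, whose values share their arrays, Cd79b and Bank1 correlated with r of 0.96 and with 0.92 after each dose group's mean was removed. Cd79a and Ms4a1 gave 0.92 and 0.86, and Cd79b and Btla 0.85 and 0.56. Cd22 had r of -0.13 to 0.10 with Cd79a, Cd79b, Ms4a1, Btla and Bank1, and 0.06 to 0.42 after the dose means were removed, the 0.42 being with Btla.

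The lung arrays lay on 3 slides, each with D0, D2 and D3 lungs. Within slides the D2 difference was 0.91, 1.18 and 1.12 for Cd79b, 0.97, 1.23 and 1.87 for Btla, 0.62, 0.98 and 0.79 for Ms4a1, and 0.73, 0.79 and 0.97 for Bank1, each of 1 or 2 arrays a group. At D3 the values were 0.83, 0.47 and 0.93 for Cd79b and 1.27, 1.5 and 1.34 for Btla, while Ms4a1 gave 0.34, 0.01 and 0.59. Centering each array on its median instead of fitting loess moved the median of all probes by 0.18, 0.38 and 0.15 at D1, D2 and D3. Relative to that shift, the D2 differences were 1.27 for Cd79b, 1.02 for Ms4a1, 0.90 for Btla, 0.48 for Bank1, 0.22 for Cr2, 0.13 for Cd79a, -0.09 for Cd22, -0.23 for Pax5 and -0.33 for Blk. At D3 they were 1.04 for Btla, 0.89 for Cd79b, 0.49 for Ms4a1, 0.40 for Bank1, 0.06 for Cr2, 0.04 for Cd79a, -0.09 for Pax5, -0.10 for Cd22 and -0.13 for Blk. Pax5 and Blk thus turned from positive to negative at both doses under that scaling, and the other 7 genes kept their sign. The reference channel alone differed between D2 and D0 by -0.16 to 0.14 for the probes of the 9 genes, and the tissue channel alone by 0.95 for Cd79b and 1.23 for Btla.

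In vehicle mice most of the 9 genes were higher in lung than in the other tissues, while Cd22, Blk and Pax5 were not called. In limma's joint fit of all 58 arrays, 6 of 9 genes were called higher in lung than in liver. The same 6 (Cd79a, Cd79b, Ms4a1, Btla, Bank1 and Cr2) were called higher than in forestomach, beside 31.1% and 20.3% of all 15949 genes. Cd79a, Btla, Pax5 and Blk entered that fit only by passing the filter in lung, so their values there are a description. Cd79b averaged 0.23 ± 0.26 in lung (n = 5), -3.38 ± 0.13 in liver (n = 5) and -3.98 ± 0.73 in forestomach (SD, n = 4). Lung exceeded liver by 3.61 on the log2 scale (95% CI 3.16 to 4.06, adjusted p = 3.23e-20 in limma) and forestomach by 4.21 (3.73 to 4.68, adjusted p = 3.41e-21). Cd79b was also called higher in liver than in forestomach, by 0.60 (adjusted p = 0.0288 in limma), and it was the only one of the 9 that was, where 19.5% of all genes were called higher. That call was lost with the mouse as a block (adjusted p = 0.0583 in limma). For Cr2 the differences were 3.30 (2.93 to 3.67) against liver and 3.8 (3.41 to 4.20) against forestomach, with adjusted p in limma of 4.83e-22 and 8.03e-23. Its dimmer probe was well above background on 0 of 5 vehicle livers and 1 of 4 vehicle forestomachs, so no difference is given for it.

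Bank1 was higher in lung than in liver by 1.94 (1.63 to 2.25) and than in forestomach by 2.10 (1.77 to 2.43), with adjusted p in limma of 5.14e-16 and 7.85e-16. Ms4a1, Btla and Cd79a were well above background on 0 of 5 vehicle livers, so their folds against liver are lower bounds. Ms4a1 was at least 6.92-fold higher in lung than in liver (adjusted p = 5.10e-13 in limma). Btla was at least 2.51-fold and Cd79a at least 1.52-fold higher, with no p given because they passed the filter only in lung. Against vehicle forestomach, where neither was above background, Btla was at least 2.79-fold and Cd79a at least 1.67-fold higher, again without a p. Ms4a1 was above background in 2 of 4 vehicle forestomachs and lay 3.34 below its lung level there (2.75 to 3.93, adjusted p = 3.95e-14 in limma). Cd22 did not follow this pattern, with means of 0.66 ± 0.22 in lung, 0.47 ± 0.32 in liver and 0.72 ± 0.12 in forestomach (SD, n = 5, 5 and 4). The lung difference was 0.20 (-0.12 to 0.52) from liver and -0.06 (-0.40 to 0.28) from forestomach, with adjusted p in limma of 0.284 and 0.792. Pax5 was above background in 2 of 5 vehicle lungs and in neither other tissue. Most vehicle lungs were thus dim as well, and Pax5 passed the filter only in lung, so no fold and no p are given for it. Blk was not well above background in any vehicle tissue, so its order is not given. With the mouse as a block, since equal numbers are the same animal, 6 genes were called in each contrast of lung with another tissue.

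**Figure D2:**
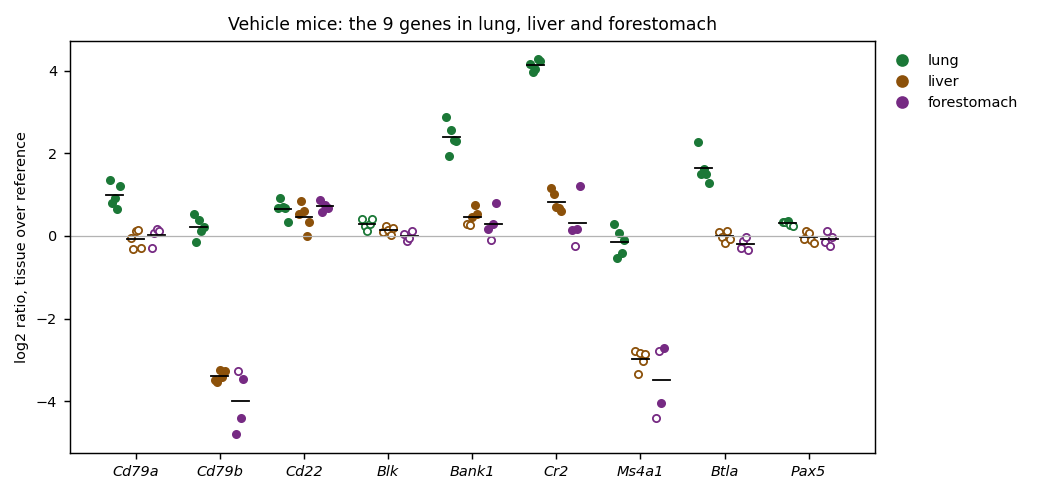
Log2 ratio of tissue RNA over reference RNA for the 9 genes in vehicle mice, by tissue, with 1 point per mouse (lung and liver n = 5, forestomach n = 4), filled where well above background, and a line at the mean. Levels are comparable between tissues of 1 gene and not between genes. Lung lies above both other tissues for Cd79a, Cd79b, Bank1, Cr2, Ms4a1 and Btla, and the tissues overlap for Cd22.

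In liver and forestomach the dose differences were tested, since they did not choose the genes. Cd79b, Ms4a1, Bank1, Cr2 and Cd22 passed the filter in each of the 2 tissues, and the other 4 genes, dim on nearly all arrays there, could not be tested. In liver, 0 of 5 genes were called by limma at any dose, where 0.233%, 0.6% and 0.367% of all genes were called from D1 to D3. At an unadjusted p under 0.05 there was 1 gene at D1 (Bank1), 2 at D2 (Cd79b and Ms4a1) and 0 at D3, against 7.78%, 13.2% and 15.8% of all genes. Bank1 in liver had 0.28, 0.26, 0.46, 0.74 and 0.53 at D0 and 0.80, 0.64, 1.14, 0.75 and 0.91 at D1, a difference of 0.39 (95% CI 0.15 to 0.63, adjusted p = 0.215 in limma). One D1 liver (0.64) lay below the highest D0 liver (0.74), and at D2 and D3 the difference was 0.16 (-0.08 to 0.40) and 0.12 (-0.14 to 0.37). Cd79b in liver had -3.48, -3.54, -3.24, -3.41 and -3.26 at D0 and -3.10, -3.28, -2.98, -2.98 and -3.30 at D2, and the difference was 0.26 (0.04 to 0.48, adjusted p = 0.299 in limma). Ms4a1 differed by 0.37 at D2, with 4 of 5 D2 livers above all D0 livers. Ms4a1 was well above background on 0 of 5 D0 livers and on 3, 1 and 1 livers of D1, D2 and D3. It thus passed the filter in liver only through dosed livers. Its liver differences are a description, without a p or a fold, also where it is counted among the 5 genes.

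At D3 the liver differences were 0.16 (-0.07 to 0.40) for Cd79b, 0.28 for Ms4a1, -0.22 (-0.58 to 0.14) for Cd22 and -0.05 (-0.46 to 0.37) for Cr2. For Cd79b the upper limit in liver at D2, 0.48, was below the lung value of 1.10, which is set beside it as a description because the lung contrast chose the gene. In forestomach 0 of 5 genes were called by limma at any dose and 0 had an unadjusted p under 0.05. Of all genes 0%, 0.00664% and 0.0199% were called from D1 to D3, and 5.32%, 3.55% and 5.42% had an unadjusted p under 0.05. The D3 differences in forestomach were -0.21 (-0.94 to 0.51) for Cd79b, -0.22 (-1.11 to 0.66) for Ms4a1, -0.21 (-0.55 to 0.13) for Bank1, -0.32 (-0.81 to 0.17) for Cr2 and -0.22 (-0.58 to 0.14) for Cd22. At D1 the intervals were -0.75 to 0.71 for Cd79b and -0.83 to 0.95 for Ms4a1, and both held the lung differences of 0.45 and 0.43. The forestomach arrays lay on 3 slides, each with all 4 dose groups, and with slide as a block the D1 intervals were -0.69 to 0.44 and -0.69 to 0.54, so the lung value remained inside for Ms4a1 and fell just outside for Cd79b. The D3 differences with that block were -0.29 (-0.87 to 0.29) for Cd79b and -0.28 (-0.91 to 0.34) for Ms4a1, and 0 of 5 genes were called by limma, with 1 at an unadjusted p under 0.05 (Cd22 at D2, -0.34, adjusted p = 0.763). The dose effects of liver and forestomach did not pass a test of their difference for any of the 5 genes (15 interaction terms, lowest adjusted p = 0.915 in limma).

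**Figure D3:**
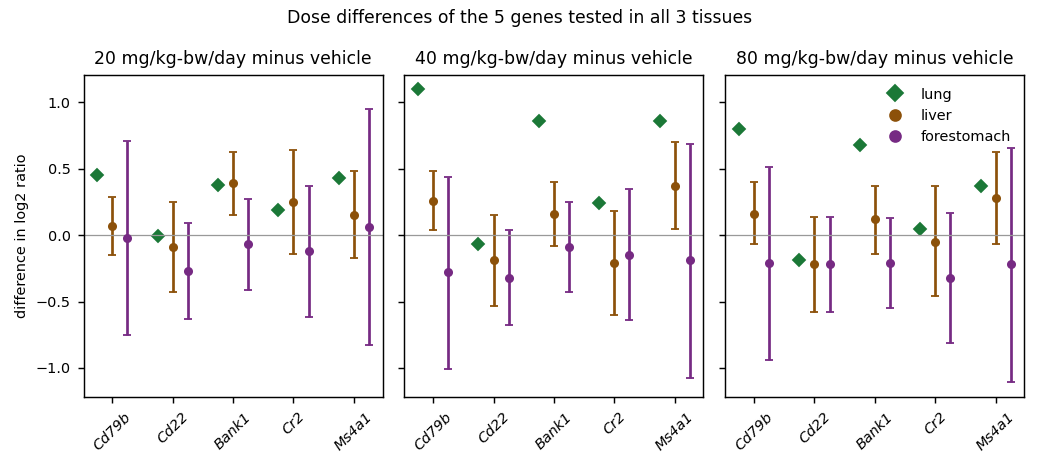
Difference in log2 ratio from vehicle for the 5 genes tested in liver and forestomach, 1 panel per BaA dose. Circles with bars are the difference and its 95% confidence interval in liver and forestomach, and diamonds are the lung differences, which have no bar because they chose the genes. The Ms4a1 values in liver are a description, since that gene passed the filter there only through dosed livers. At D2 and D3 the lung values of Cd79b and Bank1 lie above the liver and forestomach points, and at D1 the Bank1 values of lung and liver are close.

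The wide spread in forestomach was shared between genes, but much of it lay near background. Cd79b was well above background in Cy5 on 13 of the 19 forestomach arrays, Ms4a1 on 4, Bank1 on 10 and Cr2 on 13, and where a probe was dim its ratio is a bound on the tissue level. Over the 19 forestomachs Cd79b ranged from -4.82 to -3.27 and Ms4a1 from -4.41 to -2.71, and the 2 correlated with Pearson's r of 0.95 and Spearman's rho of 0.84 (permutation test, p = 1e-05 for both, the smallest that 100000 resamples can give, adjusted p = 0.0001 and 0.0002 over 20 relations computed in the 2 tissues). The permutations shuffled all arrays of a tissue regardless of slide or dose, so their p values do not take slide into account. For Cd79b and Ms4a1 the r was 0.94 without the 2 arrays farthest from the median and 0.95 within dose groups. Within the 3 slides it was 0.88, 0.93 and 0.76 (n = 6, 7 and 6). Bank1 and Cr2 correlated with r of 0.89 and rho of 0.77 (permutation p = 1e-05 and 0.00018, adjusted p = 0.0001 and 0.0018), with 0.76 without the 2 farthest arrays and 0.92, 0.95 and 0.64 within slides. The cross pairs of Cd79b or Ms4a1 with Bank1 or Cr2 had pooled r of 0.25 to 0.36 and did not pass the permutation test (adjusted p 0.244 to 0.415). Within slides those cross pairs gave 0.61 to 0.77 on slide 1, 0.92 to 0.97 on slide 2 and -0.46 to 0 on slide 3.

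Slide moved with these levels. On slide 3, 38.4% to 42.1% of all spots were well above background, against 52.4% to 69.2% on the other slides, and Cd79b was not well above background on any of its 6 arrays. Mean Cd79b was -4.45 ± 0.30 on slide 1, -4.24 ± 0.58 on slide 2 and -3.63 ± 0.19 on slide 3 of the forestomach arrays, and Ms4a1 was -4.09, -3.68 and -2.94, whereas Bank1 was 0.20, 0.31 and 0.08. Cd79b and Ms4a1 were well above background in the reference channel on 19 of 19 forestomach arrays, Cr2 on 13 and Bank1 on 0, and the part of the dim spots, the slide or the reference in the shared variation was not tested. In liver Cd79b and Ms4a1 correlated with r of 0.63 (permutation p = 0.00392, adjusted p = 0.0234) and rho of 0.49 (adjusted p = 0.232), but r was 0.33 without the 2 farthest arrays, so the relation rests on those. Ms4a1 and Cr2 in liver gave r of -0.62 (permutation p = 0.00469, adjusted p = 0.0234) and rho of -0.46 (adjusted p = 0.232), with r of -0.38 without the 2 farthest. Within the 3 liver slides (n = 7, 6 and 6) r was 0.38, 0.71 and 0.85 for Cd79b and Ms4a1. For Ms4a1 and Cr2 it was -0.12, -0.59 and -0.74. Ms4a1 was well above background on 5 of 19 livers, so both relations rest largely on dim spots.

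B cell genes outside the 9 were taken from a list of BCR signalling genes (21) and a list of B cell surface proteins and transcription factors (26), all 47 of which passed the filter in lung. At D1 0 of 47 were called by limma, although 27 had an unadjusted p under 0.05 (8.71% of all genes did). At D2 10 of 47 rose and 0 fell, where 0.627% of all genes were called higher, and at D3 9 rose and 0 fell, where 1.79% were. These calls come from the lungs and contrasts that chose the 9, and several of these genes moved with the 9 from lung to lung, so the counts describe the same arrays again. The median difference over the 47 genes was 0.31, 0.39 and 0.31 from D1 to D3. Of the 47, 40, 46 and 41 had a positive difference, beside 7644, 8175 and 8427 of all 14505 genes. The counts moved with single lungs. Leaving out the lung of D2 mouse 14 or of D0 mouse 5 left 6 at D2, and leaving out D0 mouse 1 gave 14 and D0 mouse 2 or 4 gave 5 at D3. Without the 4 lungs that stood apart 3 rose at each of D2 and D3. At D1 the signalling list's largest difference was that of Fcgr2b, an inhibitory Fc receptor that myeloid cells carry too, with 0.92 (0.15 at D2 and -0.07 at D3). Vav1, Syk and Lyn, which myeloid cells also use, had 0.59, 0.37 and 0.37 at D1, and 7 of 7 macrophage and 7 of 7 neutrophil markers had a positive D1 difference, with medians of 0.39 and 0.71. In D1 mouse 7 the average of the listed genes' ratios, each centered on its lung mean, was the highest of that group for BCR signalling (0.27) and for macrophages (0.96), while that of the 9 genes was -0.35. In D1 mouse 10 the macrophage score was 0.43, and the BCR signalling score was -0.05, the lowest of that group. The B cell surface and transcription factor list had 21 of 26 genes positive at D1, with a median of 0.29. The part of myeloid cells in the D1 values was not tested.

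In the signalling list, Malt1, a protease that acts downstream of the receptor in NF-κB signalling, rose at D3 by 0.60 ± 0.11 (difference ± SE, adjusted p = 0.00269 in limma) and had 0.54 at D2, under the fold threshold. Prkcb, a kinase downstream of the receptor, rose at D2 by 0.66 ± 0.17 (adjusted p = 0.0443 in limma) and had 0.49 at D3 (adjusted p = 0.07).

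In the other list the genes called at both D2 and D3 were Cxcr5, the receptor that guides B cells into follicles, Ccr7, a receptor for entry into lymphoid tissue, Tnfrsf13c, the receptor of the survival factor BAFF, Fcer2a, a low-affinity IgE receptor of mature B cells, H2-Ob, which tunes peptide loading of class II molecules, and Spib, an Ets family transcription factor. Cxcr5 rose by 0.94 and 0.91 (SE 0.18 for both, adjusted p = 0.00758 and 0.0031 in limma), Tnfrsf13c by 0.99 and 0.65 (0.00275 and 0.0148) and H2-Ob by 0.86 and 0.66 (0.00761 and 0.0144). Spib rose by 0.81 and 0.64, Fcer2a by 0.78 and 0.62 and Ccr7 by 0.71 and 0.68. Bach2, a repressor that holds back plasma cell formation, and Fcmr, a receptor for IgM, were called at D2 (0.63 and 0.67) and had 0.51 and 0.54 at D3.

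**Figure D4:**
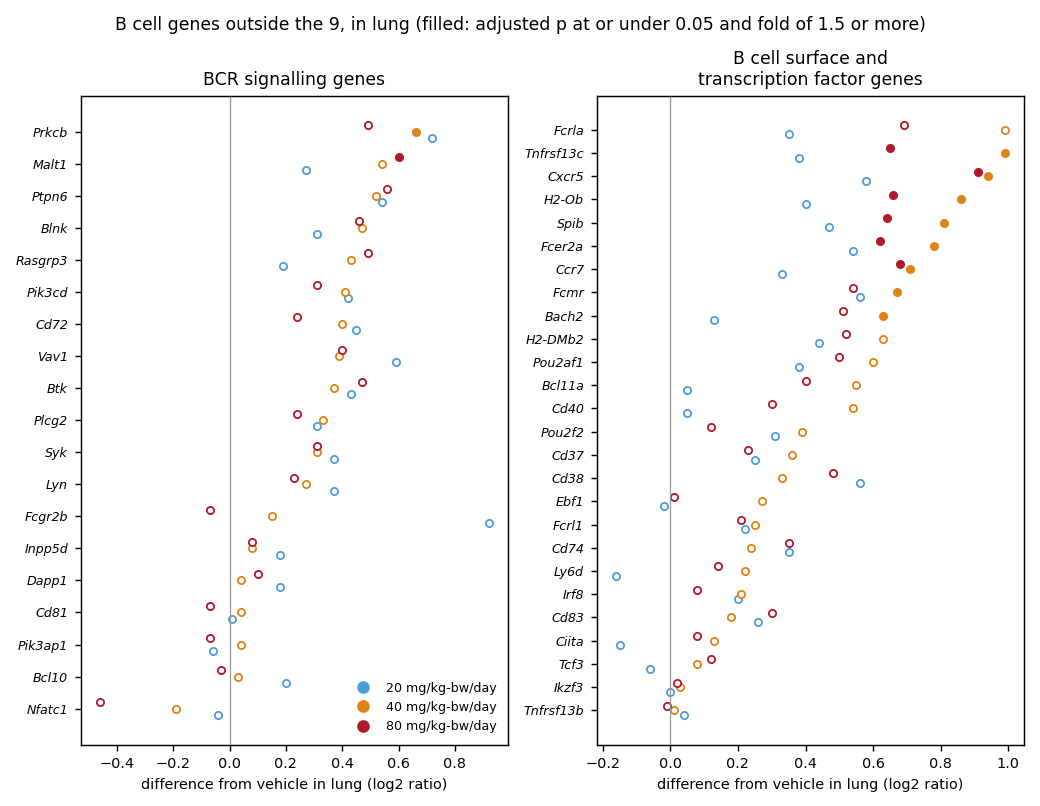
Differences from vehicle in lung (log2 ratio) for 19 of the 21 BCR signalling genes and 26 B cell surface and transcription factor genes outside the 9, at the 3 BaA doses. Filled points are called in limma. All D2 points but 1 lie to the right of 0, and all called points do.

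The genes most like the 9 in lung, by the correlation of a gene's ratio with the mean of the 9 over 20 lungs among 14496 other genes, were Fcer2a (r = 0.93), Tnfrsf13c (0.92), Spib (0.91), H2-Ob (0.90), Fcrla (0.89), an Fc receptor-like protein of B cells, and Siglecg (0.88), an inhibitory lectin. After the dose means were removed these correlations were 0.88, 0.75, 0.82, 0.74, 0.80 and 0.68. They are a description, and 5 of the 6 were in the 2 lists above.

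Some markers of other cells stood out in single lungs, the myeloid lists were higher at D1, and the T and NK cell lists had small positive medians. Of 64 genes from lists of T cells, NK cells, macrophages, neutrophils, red cells, fat, lung epithelium, liver, squamous epithelium and endothelium, 0 were called by limma at any dose, where 0%, 0.71% and 2.26% of all genes were, a share at which 64 genes give few calls or none. An unadjusted p under 0.05 was found for 7, 8 and 9 of the 64 from D1 to D3, and for 8.71%, 18.5% and 26.8% of all genes. The median T cell difference was 0.14, 0.14 and 0.38, with 11, 10 and 12 of 13 genes positive, and without the 4 lungs that stood apart it was 0.16, 0.21 and 0.16, with 11, 11 and 10 positive. The NK cell median was 0.05, 0.09 and 0.1 (5, 6 and 5 of 7 positive), or 0.08, 0.22 and 0.24 without those lungs (5, 7 and 5 positive). Klrd1 had the largest NK cell differences at D2 and D3, 0.85 and 0.73 (adjusted p = 0.0845 and 0.073 in limma). The macrophage median was 0.39, 0.03 and 0.30, or 0.39, -0.12 and 0.14 without those lungs, and the neutrophil median was 0.71, 0.13 and 0.09, or 0.72, 0.21 and -0.05. The fat median at D2 was 1.44, or 0.72 without them. The T cell score (the average of the listed genes' ratios, each centered on its lung mean) ran from -0.40 to 0 at D0, -0.29 to 0.29 at D2 and -0.09 to 1.26 at D3, where mouse 17 had the 1.26. The score of the 9 genes ran from -0.48 to -0.05 at D0, 0.06 to 0.54 at D2 and -0.01 to 0.21 at D3, and mouse 14 had the 0.54. The fat score was 3.91 in mouse 14 and -0.14 to 0.54 in the other D2 lungs, and Cxcl13, a chemokine that attracts B cells, was 3.98 in mouse 14 and 1.20 to 2.25 in the other D2 lungs. Squamous scores of D0 mouse 5 and D3 mouse 16 were 3.27 and 2.00, and the neutrophil score of D1 mouse 8 was 2.29. The part of fat, thymus or squamous tissue in the B cell values was not tested. With those 4 lungs left out the differences were 0.99 at D2 and 0.79 at D3 for Cd79b, 1.23 and 1.15 for Btla, 0.73 and 0.40 for Ms4a1, 0.78 and 0.61 for Bank1 and 0.57 and 0.30 for Cd79a.

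**Figure D5:**
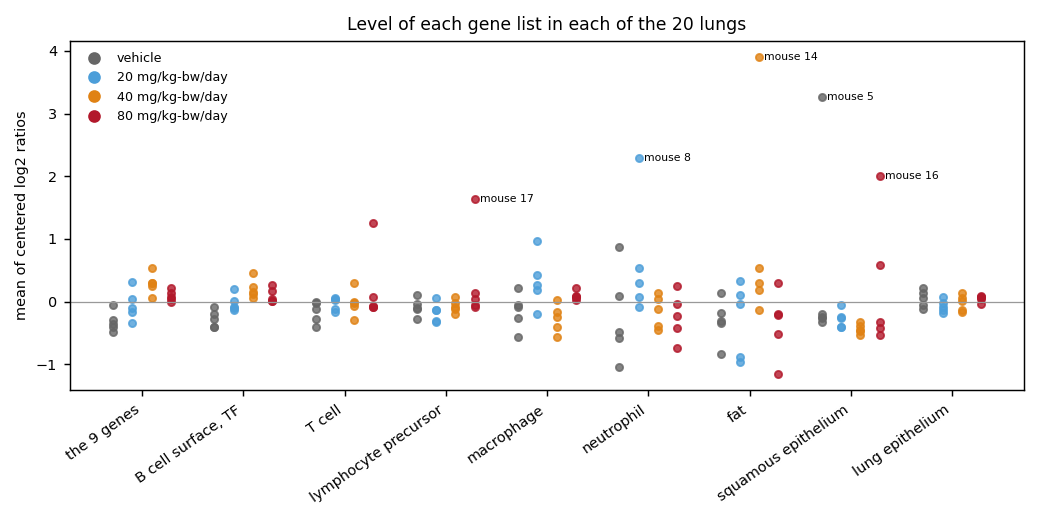
Score of each gene list in each of the 20 lungs, colored by dose, where each gene was centered on its mean over all lungs (log2 ratio) and the centered values of a list were averaged. Scores above 1.5 are labelled with the mouse. The 9 genes and the B cell surface list are higher at D2 than at D0 without a single mouse standing far apart, while fat (mouse 14), squamous epithelium (mice 5 and 16), neutrophil (mouse 8) and lymphocyte precursor genes (mouse 17) do so in single lungs.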

How the data were processed

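The 9 genes and all gene lists were chosen with earlier results of these data known. The deposited scanner files hold spot intensities on a linear scale per the file headers, and the authors took median signals without background subtraction and normalized them by LOWESS. The log2 ratios that the authors deposited as a table correlated with the ratios computed here with r of 0.995 to 0.998 per array. Here the median intensities were normalized by loess within each array (limma 3.58.1, R 4.3.3, data.table at version 1.17.8), outlier spots (0.495%) were dropped, and spots of a probe were averaged. Probe accessions were matched to RefSeq symbols (26413 of 55681 probes). There were no dye swaps. Tests in a tissue took the probes whose Cy5 signal was well above background in 4 or more of its arrays, 30381 in lung, 22786 in liver and 32313 in forestomach. Each tissue had 1 limma model of its 4 dose groups. Tissues were compared in a joint model of the 34813 probes that passed this filter in at least 1 tissue. Tests were two-sided with Benjamini-Hochberg adjustment over all probes tested, and a call needed an adjusted p of at most 0.05 and a fold change of at least 1.5. The study used MAANOVA, for which limma stands in. Equal mouse numbers across tissues are the same animal per the labels. The code was tested on simulated data. Named genes are the 9 genes, list genes called in lung (up to 8 a list by size of the D3 difference), list genes a result turns on, and the 6 genes most correlated with the 9. The number of arrays limits the precision. Of the BCR signalling list 2 genes are counted but not reported singly here.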

Additional observations from a re-analysis of the deposited data

Results flagged for a closer look

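In 76 groups of 4 or 5 arrays, 1 array stood apart from the others by Dixon's test in 3, and chance gives about 1 in 20 groups. Cd79a in the D2 lungs was 2.09 in mouse 14, with the nearest other lung at 1.62, and that lung also had the high fat genes. Pax5 in the D2 lungs was 0.26 in mouse 15, with the nearest at 0.61, and the probe was not well above background on that array. Cr2 in the D1 forestomachs was 0.91 in mouse 9, with the nearest at 0.11, and mouse 9 also had the highest D1 forestomach value of Bank1, 0.57.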

How the results depend on the processing

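Counts of the 9 genes passing in liver and forestomach stayed at 0 under every alternative run, and the 6 called between tissues ranged from 6 to 8. With the mouse as a replicate block those counts were 6 and 6, and the block ended 1 call, that of Cd79b between liver and forestomach (adjusted p = 0.0583). In lung, median centering left 0 of the 9 genes at D2 and 0 at D3, and 0 other B cell genes at both doses. Processed signals gave 2 of the 9 at D2 and 5 other B cell genes at D3. A fit of the 2 groups alone gave 3 of the 9 and 1 marker gene of other cells at D2. Chosen after seeing the data, the Cy5 channel alone gave 3 of the 9 at D2, and leaving out the 4 lungs with genes of other tissues gave 1 of the 9 at D2 and 3 other B cell genes at D2 and at D3. Leaving out 1 mouse at a time gave 4 to 5 of the 9 at D2 and 2 to 3 at D3, 6 to 12 and 5 to 14 other B cell genes, and 0 to 1 marker genes at D2 and at D3 (1 without D2 mouse 13 and 1 without D3 mouse 20). Counting any probe of a gene gave 6 and 4 of the 9. No called difference changed sign. Among uncalled ones, median centering gave Cd22 0.28 at D2 and 0.05 at D3 (main values -0.07 and -0.19), turned Blk and Pax5 negative once the shift of all probes was taken off, and processed signals gave Cr2 -0.07 at D3 (0.05). Across the alternatives, 451 values behind these counts held and 19 moved. Of the single-gene values 509 held, and 13 moved by more than 1 SD. The cause of these shifts was not tested, and runs that left out lungs also had fewer arrays. Signal near background limits Blk, Pax5 and the genes dim in liver and forestomach.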

Other observations

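In lists next to the B cell genes, of 3 to 8 tested genes each, 0 genes were called in lung, where 0%, 0.71% and 2.26% of all genes were called from D1 to D3 and 8.71%, 18.5% and 26.8% had an unadjusted p under 0.05, so nothing is read from these counts. The genes named here were chosen after their values were seen. Among 7 plasma cell genes 0 were called by limma, with 0, 3 and 3 at an unadjusted p under 0.05 from D1 to D3. Xbp1, which drives antibody secretion, differed by -0.41 at D2 and -0.43 at D3 (adjusted p = 0.0105 and 0.00243 in limma), under the fold threshold. The list as a whole did not go that way, with 4 of 7 genes positive at each of D2 and D3 and medians of 0.11 and 0.09. Of 8 partners and relatives of Btla, 6 could be tested and 0 were called (2, 3 and 2 at an unadjusted p under 0.05), and its ligand Tnfrsf14 had 0.01 at D2 and 0.11 at D3 (adjusted p = 0.976 and 0.356 in limma). Of 9 genes of the lymphoid niche 8 could be tested and 0 were called (0 at an unadjusted p under 0.05), with -0.82 for Cxcl13 at D3 (adjusted p = 0.237 in limma). Of 7 lymphocyte precursor genes 3 could be tested and 0 were called (0 at an unadjusted p under 0.05).

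In liver 19 of 21 BCR signalling genes and 13 of 26 B cell surface and transcription factor genes passed the filter, and 0 were called by limma at any dose. At an unadjusted p under 0.05 there were 2, 3 and 0 of the first list and 1, 4 and 2 of the second from D1 to D3. In forestomach 20 and 21 passed the filter and 0 were called, with 1, 0 and 1 and with 3, 0 and 1 at an unadjusted p under 0.05. Of all genes 0.233%, 0.6% and 0.367% were called in liver, and 0%, 0.00664% and 0.0199% in forestomach. An unadjusted p under 0.05 was found for 7.78%, 13.2% and 15.8% in liver, and for 5.32%, 3.55% and 5.42% in forestomach. At these shares lists of this size give few calls or none, so nothing is read from the counts.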
